A study of Mus musculus with 28 samples.

Results

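The genes of the synaptic vesicle and of its release machinery were followed across RNA libraries from the cerebral cortex of mice with experimental autoimmune encephalomyelitis (EAE), a mouse model of multiple sclerosis. Members were taken by symbol alone: the synaptotagmins (Syt), syntaxins (Stx), syntaxin-binding proteins (Stxbp), vesicle-associated membrane proteins (Vamp), synapsins (Syn1, Syn2, Syn3), vesicle glycoproteins (Sv2a, Sv2b, Sv2c), complexins (Cplx1, Cplx2, Cplx4), Rab3 GTPases, Rims and Unc13 genes, and the single genes Snap25, Syp, Bsn and Pclo. These 14 symbol patterns found 69 of the 43629 genes counted. Of the 69, 66 had enough reads to enter at least 1 test. Cplx4 and Syt8 had no read in any library, and Stx19 had 7, 2 and 3 reads over the healthy, acute and chronic input libraries and none in the pulldown.

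All mice carried the Glt25d2 BacTRAP transgene, which puts a tagged ribosomal protein under the control of Glt25d2 (now Colgalt2), a gene used to reach projection neurons of cortical layer 5. Tagged ribosomes were pulled down to give the immunoprecipitated fraction (IP), and the cortex RNA before the pulldown was the input. Mice were healthy, or had EAE induced by active immunisation with MOG35-55 and were taken 15 days (acute phase) or 30 days (chronic phase) later. Each fraction had 5 healthy, 5 acute and 4 chronic libraries. The labels give no age, sex or strain background and do not say that each library is a separate animal, so the p-values below rest on the spread between libraries alone, part of which may be technical.

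A synaptic vesicle docks at the active zone, a protein scaffold beneath the presynaptic membrane built of Bassoon (Bsn), Piccolo (Pclo) and Rim proteins. Munc13 proteins (Unc13 genes) help the vesicle SNARE synaptobrevin (Vamp2) zip up with the plasma membrane SNAREs syntaxin (Stx1a) and SNAP-25 (Snap25). Complexins clamp and assist this bundle, and calcium binding to a synaptotagmin triggers fusion. Other members of the same families serve fusion outside synapses, in endosomes, the Golgi, glia, muscle or blood cells.

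Input libraries held 17848273 to 27915940 counts and IP libraries 6198088 to 21229550. Genes with at least 1 count numbered 20714 to 21734 in the input libraries and 9566 to 17995 in the IP libraries. The members took 2.21% to 2.40% of the counts of an input library and 2.23% to 3.05% of those of an IP library. The spread between libraries was much wider in IP, with a common biological coefficient of variation of 1.06 against 0.101 in input. Tests of IP against input and of interactions took 1 dispersion per gene over both fractions. Their p-values may be too small for the spread of IP. IP acute replicates 3 and 1, IP chronic replicate 3 and IP healthy replicate 5 detected the fewest genes, and results for IP were also computed without these 4. In bulk tissue RNA, fewer cells of a type and less RNA per cell cannot be told apart.

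Levels are given as CPM, the count scaled to a common library size, and are compared between genes only as RPKM, which also divides by exon length. In healthy input, Snap25, the SNARE of the plasma membrane that is a target of botulinum toxin, was the most abundant member at 678 ± 42.5 RPKM (mean ± SD, n = 5). Complexin 1 (Cplx1) followed at 459 ± 33.1 RPKM, then the vesicle GTPase Rab3a at 409.8 ± 6.94 and Vamp2 at 408 ± 11.1. The ranges of Cplx1, Rab3a and Vamp2 over the 5 libraries met, so their order was within the spread. Among the members below these were Cplx2 (349 ± 17.5 RPKM), synapsin 1 (Syn1, 228 ± 7.86) and Stx1a (169.8 ± 12.3). Syt1, the main calcium sensor of fast release in forebrain, stood at 143 ± 11.3 RPKM. The giant scaffold gene Pclo, whose exons sum to 19182 bases, stood at 4.39 ± 0.497 RPKM. Low levels were found both for members known mainly from outside synapses, such as Vamp8 (2.14 ± 0.362 RPKM), Vamp5 (1.18 ± 0.242) and Stx11 (0.0674 ± 0.0454), and for synaptic ones such as the synapsin Syn3 (0.818 ± 0.105).

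In healthy IP the order changed at several places. Snap25 again led with 917 ± 86.4 RPKM, followed by Rab3a at 711 ± 56.7 and Cplx1 at 682 ± 84.3, whose ranges met. Cplx2 moved from the fifth place in input to the ninth, at 195 ± 34.0 RPKM, and Syt5 from the fourteenth to the tenth, at 187 ± 19.1. Syt1 remained near its input level at 144 ± 16.6 RPKM.

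The comparison of IP with input asked which release genes were over- or under-represented on the tagged ribosomes. The vesicle genes Syp, Syn1, Rab3a and Syt5 and the SNARE Snap25 were higher in IP, while the active zone genes Pclo, Bsn, Rims1 and Rims3 and the complexin Cplx2 were lower. In healthy mice 22 of 66 members passed edgeR's quasi-likelihood test at a Benjamini-Hochberg adjusted p under 0.05 (9 higher, 13 lower), against 21.6% of all 16580 genes tested (7.2% higher, 14.4% lower). In the acute phase 23 passed (14 higher, 9 lower, against 18.7% of all genes, 8.56% higher and 10.1% lower), and in the chronic phase 25 (11 higher, 14 lower, against 28.7%, 8.74% and 20.0%). The median log2 ratio of the members was -0.15, -0.26 and -0.24 in the healthy, acute and chronic phase, beside -0.23, -0.36 and -0.32 over all genes tested. Called in the same direction in all 3 phases were 6 members that were higher (Rab3a, Snap25, Syn1, Syp, Syt5 and Syt11) and 7 that were lower (Bsn, Cplx2, Pclo, Rims3, Stx16, Stxbp6 and Vamp4), out of 66. Over all genes these shares were 4.68% and 5.33%. Groups did not overlap for 9 higher and 20 lower members in healthy mice (7.86% and 22.4% of all genes), 10 and 22 in acute (7.45% and 24.1%) and 10 and 23 in chronic mice (10.2% and 30.0%). Without the 4 IP libraries of low detection, 30, 25 and 37 of 66 members passed edgeR's test in the healthy, acute and chronic phase, beside 34.1%, 26.8% and 42.1% of all 16903 genes tested in that fit.

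**Figure D1:**
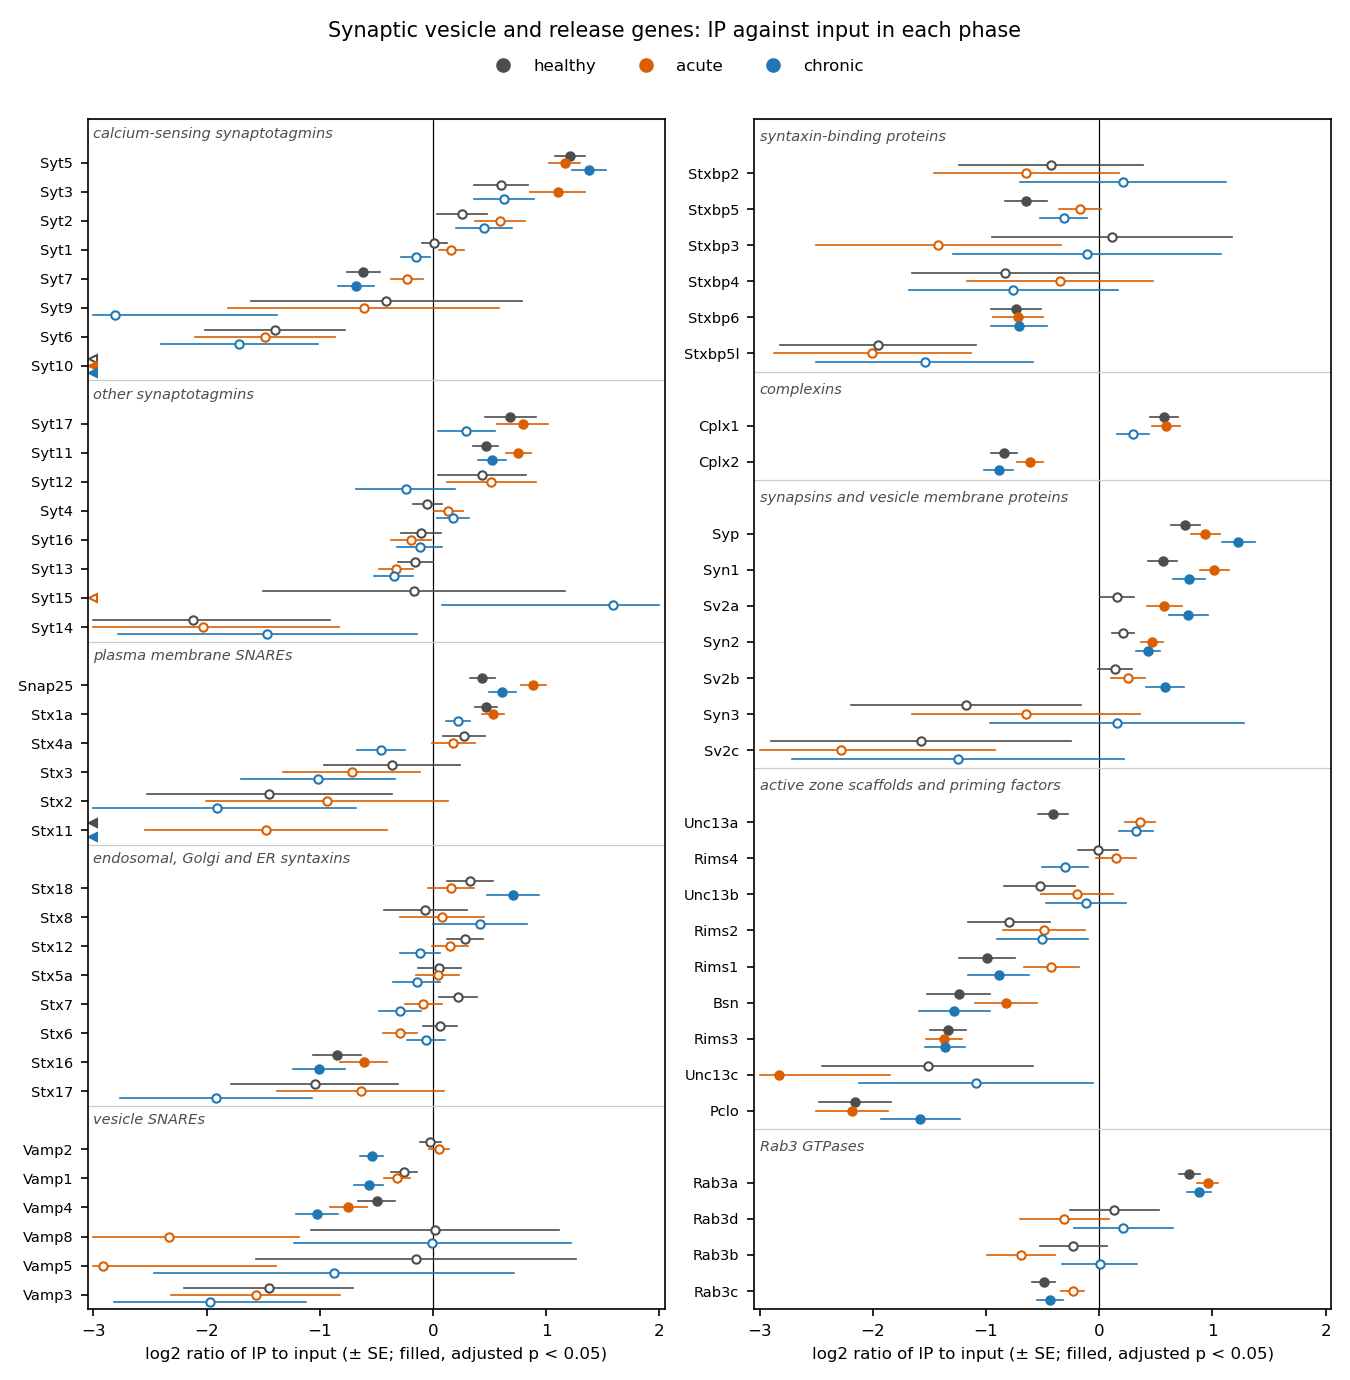
Log2 ratio of IP to input (horizontal axis, ± SE) for 64 of the 66 members tested, grouped by role, with 1 point per phase (grey healthy, orange acute, blue chronic); filled points have an adjusted p under 0.05 and triangles lie beyond the axis. Filled points of the active zone genes lie left of 0 (Pclo at -2.15, -2.19 and -1.58), and those of the synapsins and vesicle membrane proteins lie right of it (Syp at 0.76, 0.94 and 1.23).

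Among calcium sensors, Syt5 had the highest ratio. Syt5 (chr7:4539768-4546567, minus strand, GRCm38), a synaptotagmin also known from dense-core vesicles, had 131, 124, 173, 140.0 and 139 CPM in the 5 healthy input libraries. In the 5 healthy IP libraries it had 331, 298, 359.8, 287 and 358 CPM. Every IP library was above every input library, and the log2 ratio was 1.21 ± 0.13 SE (adjusted p = 1.33e-07), with 1.16 ± 0.13 in the acute and 1.38 ± 0.15 in the chronic phase. Syt3, which binds calcium with high affinity, was higher in the acute phase (1.10 ± 0.24, adjusted p = 0.00112) and had 0.60 and 0.63 in the others without passing. Syt7, a sensor for slow and asynchronous release, was lower in healthy (-0.62 ± 0.14) and chronic mice (-0.68 ± 0.16). With all libraries, Syt1 did not pass in any phase (0.01 ± 0.11, 0.16 ± 0.11 and -0.15 ± 0.12). Without the 4 IP libraries of low detection, edgeR's test called Syt1 higher in acute mice (0.46 ± 0.09, adjusted p = 0.000392). In that fit Syt3 was also higher in healthy (0.70 ± 0.21, adjusted p = 0.0109) and chronic mice (0.66 ± 0.24, adjusted p = 0.0281). The log2 ratio of Syt1 to Syt5 within a library, given without a test, was 3.09 ± 0.10 (SD) in healthy input and 1.88 ± 0.30 in healthy IP.

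Synapsins and vesicle membrane proteins had calls upwards and none downwards: 2, 4 and 5 of 7 members were higher in the healthy, acute and chronic phase. The rest did not pass, and in each phase not all ratios of the group were above 0. Synaptophysin (Syp, chrX:7638471-7653256), an abundant membrane protein of the vesicle, had 626, 619.6, 840.4, 737 and 694 CPM in healthy input and 1049, 1051, 1396, 1262 and 1201 CPM in healthy IP. The groups did not overlap, and the log2 ratio was 0.76 ± 0.13 (adjusted p = 6.94e-05), then 0.94 ± 0.13 in the acute and 1.23 ± 0.14 in the chronic phase. Synapsin 1 (Syn1, chrX:20860511-20921004), which tethers vesicles in the reserve pool, had 759, 767, 711, 778 and 745 CPM in healthy input and 809, 1398, 1045, 1197 and 1101 in healthy IP. All 5 IP libraries exceeded the highest input library, the ratio was 0.56 ± 0.13 (adjusted p = 0.00159), and it was 1.02 ± 0.13 and 0.79 ± 0.14 in the later phases. Syn2 passed in the acute (0.46 ± 0.10) and chronic phase (0.43 ± 0.11), as did Sv2a, the vesicle glycoprotein bound by levetiracetam (0.57 ± 0.15 and 0.79 ± 0.17). Its relative Sv2b passed in the chronic phase (0.58 ± 0.17, adjusted p = 0.00888). The gene spans of Syn1 and Syn2 overlap those of the opposite-strand genes Araf and Timp4, and the counts do not use strand. Whether exons overlap was not examined.

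Rab3a (chr8:70754679-70758677), the main Rab GTPase of synaptic vesicles, had 904, 929, 890.0, 922 and 916 CPM in healthy input and 1509.7, 1557, 1529, 1514 and 1807 CPM in healthy IP. The 2 sets were far apart, with a log2 ratio of 0.80 ± 0.09 (adjusted p = 3.06e-07). Acute input had 909.9, 989.7, 925, 927 and 955 CPM and acute IP 2276, 1796, 1441, 1723 and 1920.0, a ratio of 0.96 ± 0.09, and the chronic ratio was 0.88 ± 0.10. Its paralog Rab3c went the other way, with 677, 704, 579, 656 and 651 CPM in healthy input, 564, 461, 446, 464 and 389.6 in healthy IP and a ratio of -0.49 ± 0.10 (adjusted p = 0.000673). Every healthy IP library was below every healthy input library. In the chronic phase Rab3c was also lower (-0.44 ± 0.11), and in the acute phase its ratio of -0.24 ± 0.10 did not pass. The log2 ratio of Rab3a to Rab3c, described without a test, was 0.48 ± 0.09 (SD), 0.89 ± 0.09 and 0.69 ± 0.14 in healthy, acute and chronic input and 1.77 ± 0.28, 2.08 ± 0.27 and 2.01 ± 0.30 in IP.

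The complexins split in the same manner. Cplx1 (chr5:108518554-108550024) had 975, 1076, 898, 1063 and 1009 CPM in healthy input and 1506, 1746, 1231, 1530.3 and 1448 CPM in healthy IP. No healthy IP library fell as low as an input library, and the ratio was 0.57 ± 0.13 (adjusted p = 0.00117), with 0.59 ± 0.13 in the acute phase and 0.30 ± 0.14 in the chronic phase, where it did not pass (adjusted p = 0.13). Cplx2 (chr13:54371349-54383917) had 1629, 1713, 1699, 1864 and 1699 CPM in healthy input and 733, 1054, 891, 1177 and 946 CPM in healthy IP. Here every IP library was below every input library, and the ratios were -0.84 ± 0.11 (adjusted p = 3.10e-06), -0.61 ± 0.11 and -0.89 ± 0.13. The log2 ratio of Cplx1 to Cplx2 within a library was -0.78 ± 0.09 (SD) in healthy input and 0.65 ± 0.26 in healthy IP, so the more abundant complexin by CPM was Cplx2 in input and Cplx1 in IP.

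**Figure D2:**
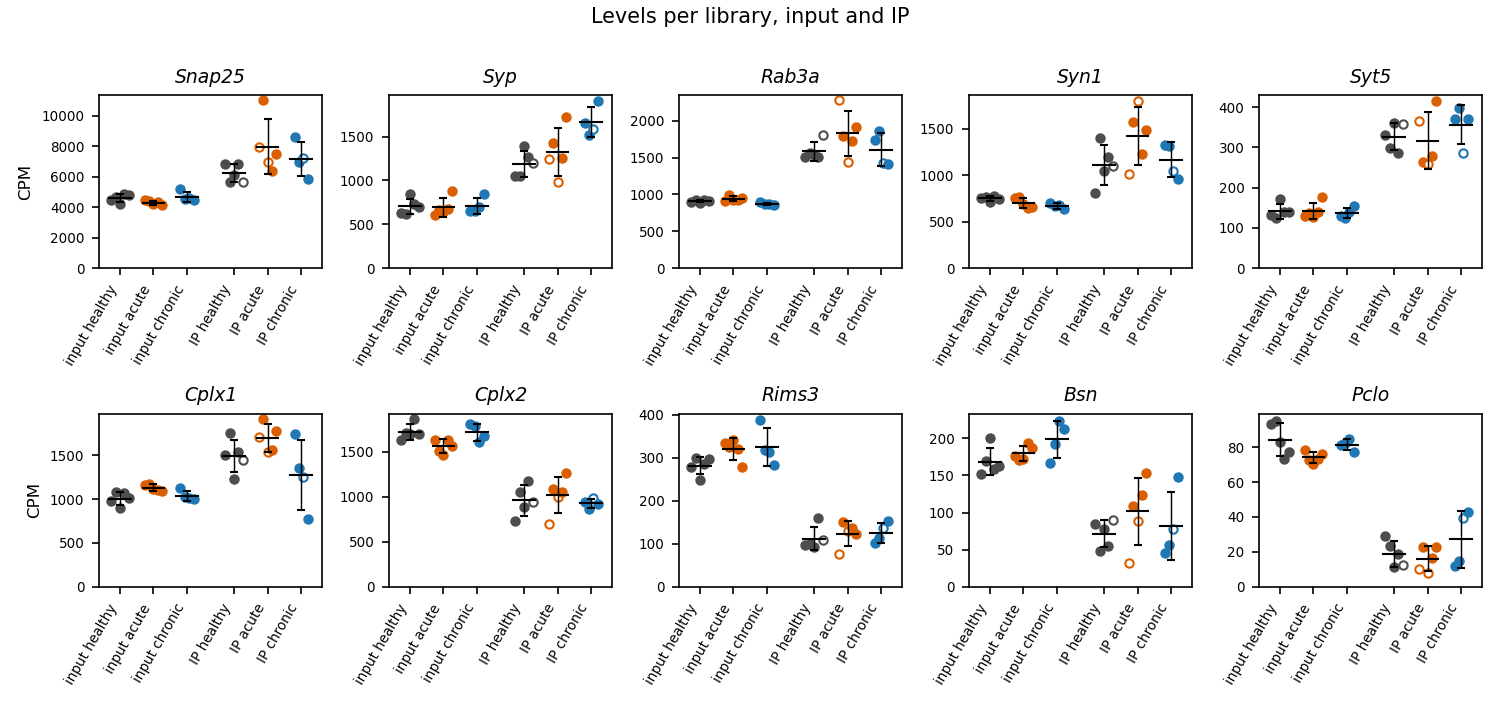
CPM of 10 members in each of the 28 libraries (points; bars, mean ± SD; open points, the 4 IP libraries of low detection), by fraction and phase, each panel on its own axis from 0. Snap25, Syp, Rab3a, Syn1 and Syt5 lie higher in IP in all 3 phases, and Cplx2, Rims3, Bsn and Pclo lie lower.

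Of the SNAREs at the plasma membrane, Snap25 (chr2:136713453-136782428) was higher in IP throughout. It had 4448, 4684, 4180.5, 4879 and 4822 CPM in healthy input and 6861, 5686, 6136, 6808 and 5648 in healthy IP, groups that did not overlap (log2 ratio 0.44 ± 0.11, adjusted p = 0.00277). The acute ratio was 0.89 ± 0.11 and the chronic ratio 0.61 ± 0.12. Stx1a was higher in healthy (0.47 ± 0.10) and acute mice (0.53 ± 0.10).

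No vesicle SNARE was higher in IP in any phase. Vamp2 was level with input in healthy (-0.02 ± 0.09) and acute mice (0.05 ± 0.09) and lower in chronic mice (-0.54 ± 0.10, adjusted p = 0.000228). Chronic input libraries had 1588, 1505, 1505 and 1519 CPM and chronic IP libraries 1241, 1129, 1042 and 790.4, without overlap. Vamp1, the synaptobrevin that prevails in brainstem and spinal cord, was lower in chronic IP (-0.57 ± 0.13, adjusted p = 0.00148). Its gene span overlaps that of Tapbpl on the other strand. Vamp4, a SNARE of the trans-Golgi and endosomes, was lower in all 3 phases (-0.50 ± 0.16, -0.75 ± 0.16 and -1.03 ± 0.18), and so was Stx16, its partner there (-0.85 ± 0.21, -0.61 ± 0.21 and -1.01 ± 0.23).

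With all libraries, the active zone group had calls downwards and none upwards: 5, 4 and 4 of its 9 members were lower in the healthy, acute and chronic phase. Pclo (chr5:14514918-14860184) had 93.3, 94.7, 82.8, 73.3 and 77.2 CPM in healthy input and 28.9, 23.3, 11.2, 18.6 and 12.5 CPM in healthy IP. The highest IP value was less than the lowest input value, and the log2 ratio of -2.15 ± 0.32 (adjusted p = 1.37e-05) was followed by -2.19 ± 0.32 and -1.58 ± 0.35 in the later phases. Bsn (chr9:108096022-108190384), its partner scaffold, had 152, 169, 199.7, 159 and 162 CPM in healthy input and 84.1, 48.9, 77.9, 55.5 and 89.8 in healthy IP, again without overlap (-1.24 ± 0.28, adjusted p = 0.0013). Its acute ratio of -0.82 ± 0.28 (adjusted p = 0.0342) did not pass without the 4 IP libraries of low detection, where it was -0.36.

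Rims3 (chr4:120854816-120896579), a short Rim protein, had 278, 300.0, 249, 286 and 298 CPM in healthy input and 98.2, 98.9, 93.1, 159 and 110.1 in healthy IP. The groups were well separated, and the ratios in the 3 phases were close in value (-1.33 ± 0.16, -1.37 ± 0.16 and -1.37 ± 0.18, adjusted p = 3.89e-07, 1.25e-07 and 9.36e-07). Rims1, the long Rim that recruits calcium channels and Munc13, was lower in healthy (-0.99 ± 0.24) and chronic mice (-0.89 ± 0.27) and had -0.42 ± 0.24 in acute mice (adjusted p = 0.262). In chronic IP, replicate 2 had 51.4 CPM of Rims1 beside 126 to 133 in the others, and without replicate 2 the chronic call was lost. Unc13a, the Munc13 that primes most cortical synapses, was lower in healthy IP (-0.41 ± 0.13, adjusted p = 0.0263), a call lost when healthy replicate 2, 3 or 5 was left out. Without the 4 IP libraries of low detection, edgeR's test called Unc13a higher in acute IP (0.52 ± 0.13, adjusted p = 0.00447). In that fit it was also higher in chronic IP (0.42 ± 0.14, adjusted p = 0.019).

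Exon length and the levels of cell type markers are set beside these ratios as descriptions. The exons of the 9 members higher in healthy IP had a median length of 2666 bases, those of the 13 lower members 7080 bases. The medians were closer in acute mice (3967.5 and 4928 bases) and in chronic mice (4991 and 5947 bases). Spearman's rho of log2 ratio with exon length was -0.38 in healthy, -0.15 in acute and -0.15 in chronic mice over the 66 members, and -0.14, 0.05 and 0.04 over all 16580 genes. Among genes with a mean of at least 50 CPM it was -0.57, -0.40 and -0.34 over 42 members and -0.42, -0.12 and -0.14 over 4439 genes, all as descriptions across genes that share their libraries. The summed level of 8 layer 5 markers ran from 664 to 724 CPM in healthy input and 1207 to 1559.7 in healthy IP, and 5 of the 8 were higher. The summed level of 6 inhibitory neuron markers was 907 to 1141 CPM in healthy input and 573 to 801 in IP, with 2 of 6 lower. That of 6 oligodendrocyte markers was 1935 to 2625 and 1034 to 1327 CPM, with 4 of 6 lower, so neither marker set was absent from IP. The 6 endothelial and mural markers had a median log2 ratio of 0.99 in healthy mice, with 5 of 6 positive and 0 called. The part of transcript length and of cell types in the members' ratios was not tested.

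Leaving out 1 number of both fractions at a time, 16 of 22 calls held in every fit of healthy, 16 of 23 of acute and 20 of 25 of chronic mice. Of the calls named above, Vamp4 in healthy mice held in the fit without replicate 1 alone, and Bsn in acute mice in the fit without replicate 5 alone. Stxbp6 was lost without replicate 1 or 5 in healthy, replicate 1, 3 or 5 in acute and replicate 2 or 4 in chronic mice. In acute mice Stx16 was lost without replicate 1, 4 or 5. In chronic mice Rab3c was lost without replicate 2 and Sv2b without replicate 4.

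A few low members were nearly missing from IP. Syt10, known from olfactory bulb neurons, had 316, 285 and 209 counts over the healthy, acute and chronic input libraries and 21, 10 and 0 in IP, the first 2 figures each from 1 library. In chronic mice, counting error alone would put it at least 47.8-fold lower in IP. This takes 3 counts in all chronic IP libraries together as the limit that a count of 0 allows. The IP libraries spread by more than counting error: Stx17 had 0, 0, 193 and 211 counts in the chronic ones. The real difference may thus be smaller than this limit. Stx11 had 16, 54 and 49 counts in input and 0, 12 and 0 in IP, the 12 from 1 library. The same limits from counting error alone were 4.22-fold in healthy and 11.2-fold in chronic IP, with the same reservation. Syt15 had 39, 32 and 31 counts in input and 31, 1 and 67 in IP, with all IP reads of a phase in 1 library, and it passed in no phase.

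Input cortex was compared between phases to ask what changed in whole cortex. In the acute phase the SNAREs Vamp8, Vamp5 and Stx11, the syntaxin-binding protein Stxbp2 and the GTPase Rab3d were higher, as were Cplx1 and the endosomal Stx8. By role these were 2 of 6 vesicle SNAREs, 1 of 7 plasma membrane SNAREs, 1 of 7 syntaxin-binding proteins, 1 of 4 Rab3 GTPases, 1 of 2 complexins tested and 1 of 8 endosomal, Golgi and ER syntaxins. Lower were Rab3c, the active zone genes Rims1, Unc13a and Pclo, the synaptotagmins Syt4 and Syt6, Cplx2 and the endosomal Stx7. These were 15 of 65 members tested (7 higher, 8 lower), beside 19.7% of all 16381 genes (11.1% higher, 8.59% lower), so the share called was near that of all genes. The median log2 change of the members was -0.03, beside -0.01 over all genes. At an unadjusted p under 0.05 there were 25 members. The share of all genes at that threshold was not computed, here or below, so such counts have no baseline. Groups did not overlap for 5 higher members (Cplx1, Stx8, Stxbp2, Vamp5 and Vamp8, against 9.01% of all genes) and 4 lower ones (Rab3c, Stx7, Syt4 and Unc13a, against 5.57%). Left out 1 library at a time, Vamp8, Rab3c, Rims1, Unc13a, Rab3d, Stxbp2, Cplx1 and Vamp5 passed in each of the 10 fits, and without input acute replicate 3 the count of members was 9. Stx7 was lost without input healthy replicate 1 or input acute replicate 3 or 4, and Stx8 without input healthy or acute replicate 2 or 3.

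**Figure D3:**
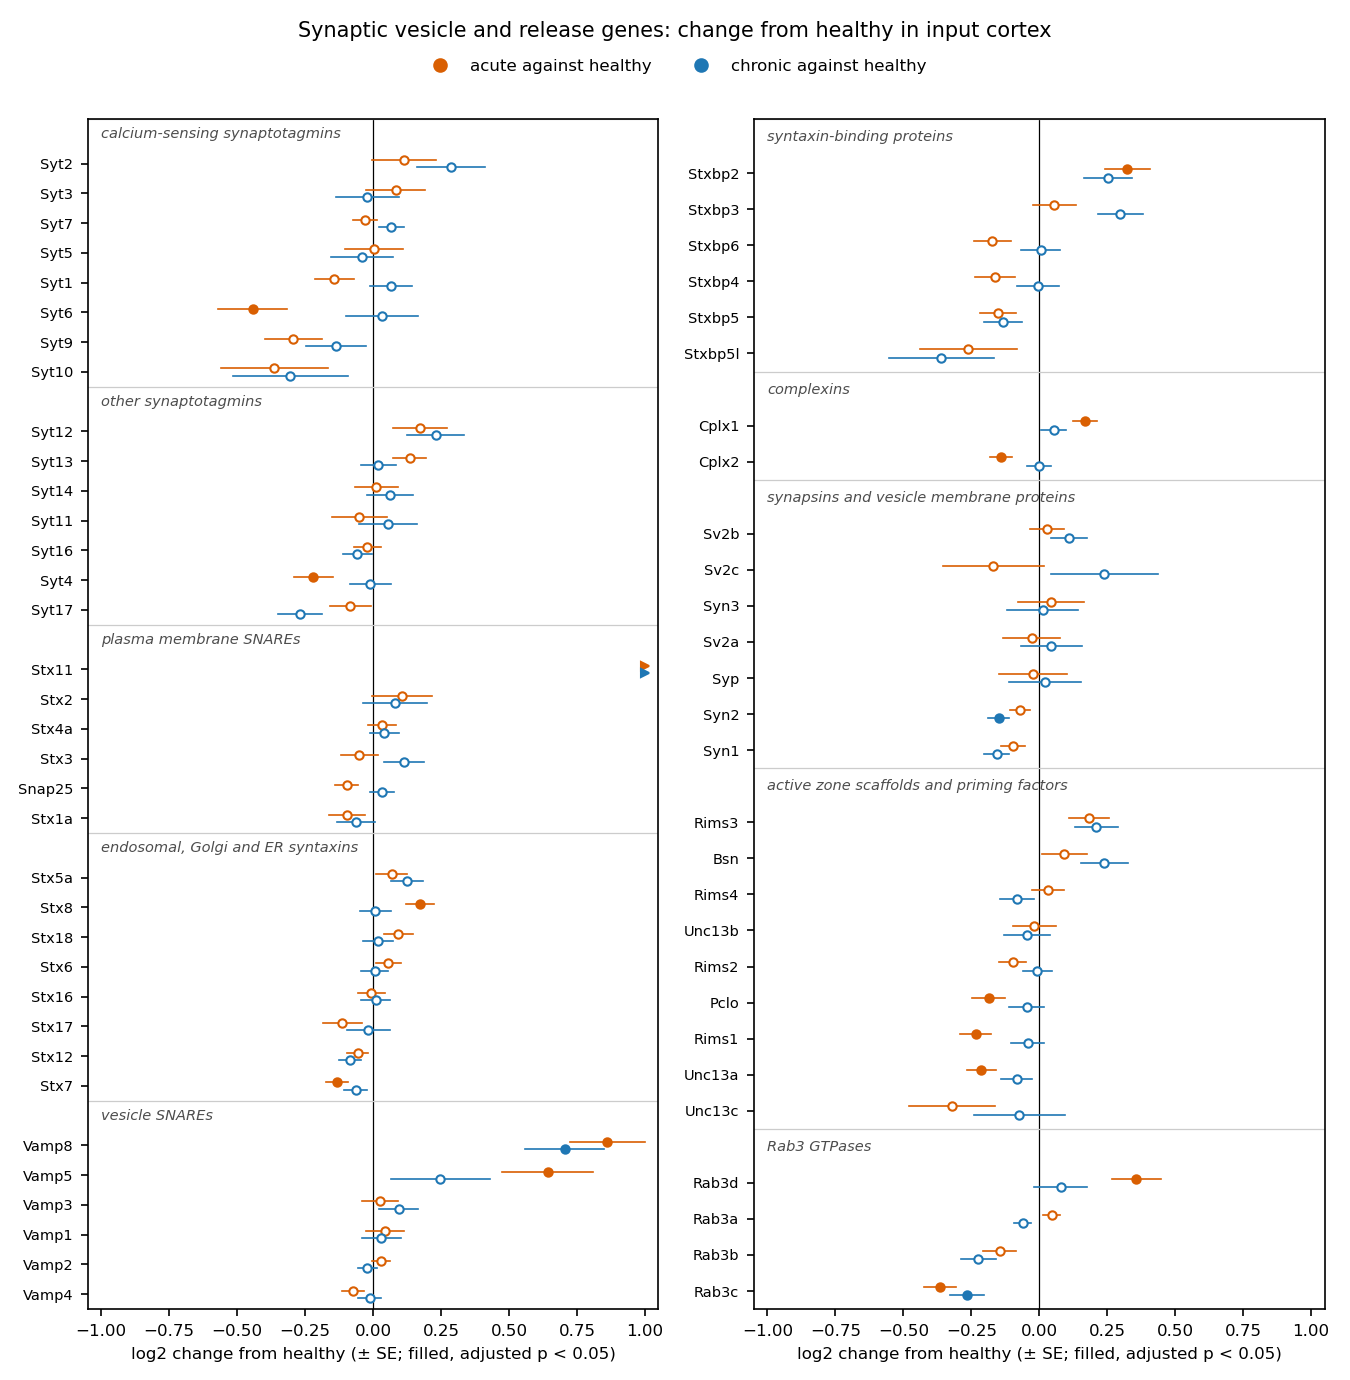
Log2 change from healthy in input cortex (horizontal axis, ± SE) for 63 of the 65 members tested there, grouped by role (orange, acute; blue, chronic; filled, adjusted p under 0.05; triangles, beyond the axis). Vamp8 stands at 0.86 in the acute and 0.70 in the chronic phase and Rab3c at -0.36 and -0.27.

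Vamp8 (chr6:72385223-72390703, minus strand), the SNARE endobrevin of endosomes and secretory granules, changed in both phases. It had 5.16, 5.72, 5.07, 3.51 and 5.26 CPM in the 5 healthy input libraries, 11.4, 7.22, 9.34, 8.67 and 8.42 in the 5 acute and 8.39, 8.98, 7.24 and 7.55 in the 4 chronic ones. All acute and chronic values were above all healthy ones, with log2 changes of 0.86 ± 0.14 (adjusted p = 0.000157) and 0.70 ± 0.15 (adjusted p = 0.00909). Vamp5 (chr6:72368049-72380468, minus strand), a muscle SNARE next to Vamp8 on chromosome 6, had 1.99, 2.18, 1.41, 1.73 and 2.45 CPM in healthy, 3.56, 2.63, 2.90, 3.24 and 2.95 in acute and 2.14, 2.11, 2.40 and 2.60 in chronic input. Acute values were all above the healthy ones (0.64 ± 0.17, adjusted p = 0.0102), and the chronic values overlapped the healthy ones (0.25 ± 0.18, adjusted p = 0.587). Vamp5, Stx11, Rab3d, Stxbp2, Stx7, Stx8 and Syt4 were chosen for naming here after their values had been seen.

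Stx11 (chr10:12939983-12964259, minus strand), the syntaxin of cytotoxic lymphocytes and platelets, was counted 16 times in healthy, 54 times in acute and 49 times in chronic input. Its levels were 0.236, 0.208, 0.262, 0.102 and 0 CPM in healthy, 0.644, 0.438, 0.460, 0.249 and 0.581 in acute and 0.469, 0.816, 0.499 and 0.637 in chronic libraries. Acute and healthy values touched, chronic and healthy ones did not, and the changes were 1.50 ± 0.48 (adjusted p = 0.0321) and 1.87 ± 0.49 (adjusted p = 0.0437). The acute call was lost without input healthy replicate 4 or 5 or input acute replicate 1, 3 or 5, and the chronic call held in 1 of 9 fits that left a library out, the one without input healthy replicate 3. Stxbp2 (chr8:3630955-3643644), a syntaxin-binding protein that partners Stx11 in granule release, rose from 14.7, 12.8, 15.5, 12.4 and 15.4 CPM to 17.1, 18.9, 18.6, 17.0 and 16.9 CPM in acute input (0.32 ± 0.08, adjusted p = 0.00832). The lowest acute library was above the highest healthy one. Rab3d (chr9:21907491-21918192), a Rab3 of secretory cells, had 13.3, 12.9, 11.5, 11.2 and 15.3 CPM in healthy and 16.4, 17.2, 16.1, 17.2 and 15.2 in acute input, overlapping by 1 healthy library (0.36 ± 0.09, adjusted p = 0.00824).

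The promoters of the 3 members with the largest rises are shown because they rose in the same tissue while differing in base composition. The letters are RefSeq sequence of GRCm38.p6 upstream of the annotated start, 5′ to 3′ on the gene's strand, leaving out 36 bases for Vamp8 and 39 for Stx11 that are annotated as exon, and capitals mark a match to TTCNNNGAA, the core of an element bound by STAT factors.
Vamp8 (chr6:72390704-72390917, minus strand): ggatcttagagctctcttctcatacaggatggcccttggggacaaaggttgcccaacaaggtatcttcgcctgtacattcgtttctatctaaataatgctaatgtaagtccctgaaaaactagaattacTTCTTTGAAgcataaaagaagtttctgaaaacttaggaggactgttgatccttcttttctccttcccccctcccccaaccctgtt
Vamp5 (chr6:72380469-72380718, minus strand): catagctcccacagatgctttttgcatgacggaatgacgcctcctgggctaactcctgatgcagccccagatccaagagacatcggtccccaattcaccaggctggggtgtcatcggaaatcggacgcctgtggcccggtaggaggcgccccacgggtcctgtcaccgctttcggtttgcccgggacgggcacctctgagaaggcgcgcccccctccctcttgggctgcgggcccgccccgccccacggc
Stx11 (chr10:12964299-12964509, minus strand): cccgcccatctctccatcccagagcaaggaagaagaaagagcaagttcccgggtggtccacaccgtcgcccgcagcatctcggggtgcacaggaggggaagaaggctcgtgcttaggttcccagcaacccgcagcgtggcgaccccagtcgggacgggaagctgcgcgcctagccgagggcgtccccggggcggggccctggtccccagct
In the 250 bases upstream of the start, Vamp8 had 3 CG pairs, Vamp5 had 19 and Stx11 had 21. Over 32817 promoters of all genes the median was 6 (quartiles 2 and 16), and over the 70 promoters of the 54 members matched by symbol it was 14 (quartiles 7 and 19). On both strands, TTCNNNGAA was found in 7.01% of all promoters and in 3 of the 70 member promoters (4.29%). The core of the interferon-stimulated response element, GAAA followed by any 2 bases and a second GAAA, was in 2.97% of all and in 5 member promoters (7.14%), those of Sv2b, Unc13a and Vamp1 and 2 of Syt6, and not in the 3 shown. The 2 Syt6 promoters overlap (chr3:103574995-103575244 and chr3:103575032-103575281), so 1 match may be counted in both. The PU.1 element GAGGAAGT was in 2.44% of all and in none of the 70. The E-box CACGTG was in 6.02% of all and in 8 member promoters (11.4%), among them the same 2 overlapping ones of Syt6. The cyclic AMP response element TGACGTCA was in 1.55% of all and in 2 of them (2.86%), and TATAAA was in 12.4% of all and in 5 (7.14%). A match of letters is a description and not a site, and no motif of this set overlapped the one marked.

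Levels of cell type markers in input are set beside these changes. In input, the summed level of 9 leukocyte markers was 2.65 to 4.63 CPM in healthy, 14.3 to 21.9 in acute and 8.19 to 19.5 in chronic libraries. Cd3g and Ly6c2 were at 0 in healthy input. Of the 7 leukocyte markers tested, 6 were higher in the acute and 5 in the chronic phase. The 6 microglial markers summed to 35.4 to 53.2, 66.3 to 106 and 49.8 to 111 CPM (4 higher and 1 lower in the acute phase), and 6 astrocyte markers to 674 to 986, 992 to 1518 and 960.4 to 1708 (2 higher). The 8 interferon response genes, all higher in acute input, summed to 21.4 to 30.8, 158 to 321 and 45.0 to 88.3 CPM. The 5 general neuronal markers ran from 2418 to 2678 CPM in healthy to 2271 to 2398 in acute input, with 1 of 5 lower. Other neuronal lists did not fall in this way. The 4 excitatory markers summed to 3210 to 3445 CPM in healthy and 3357 to 3526 in acute input, with 0 called. The 8 layer 5 markers had 664 to 724 and 685 to 763 CPM (1 higher, 1 lower). The 6 inhibitory markers had 907 to 1141 and 926 to 1044 CPM (1 higher, 1 lower). The part of these cells in the changes of Vamp8, Vamp5, Stx11, Stxbp2, Rab3d and the lower members was not tested.

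**Figure D4:**
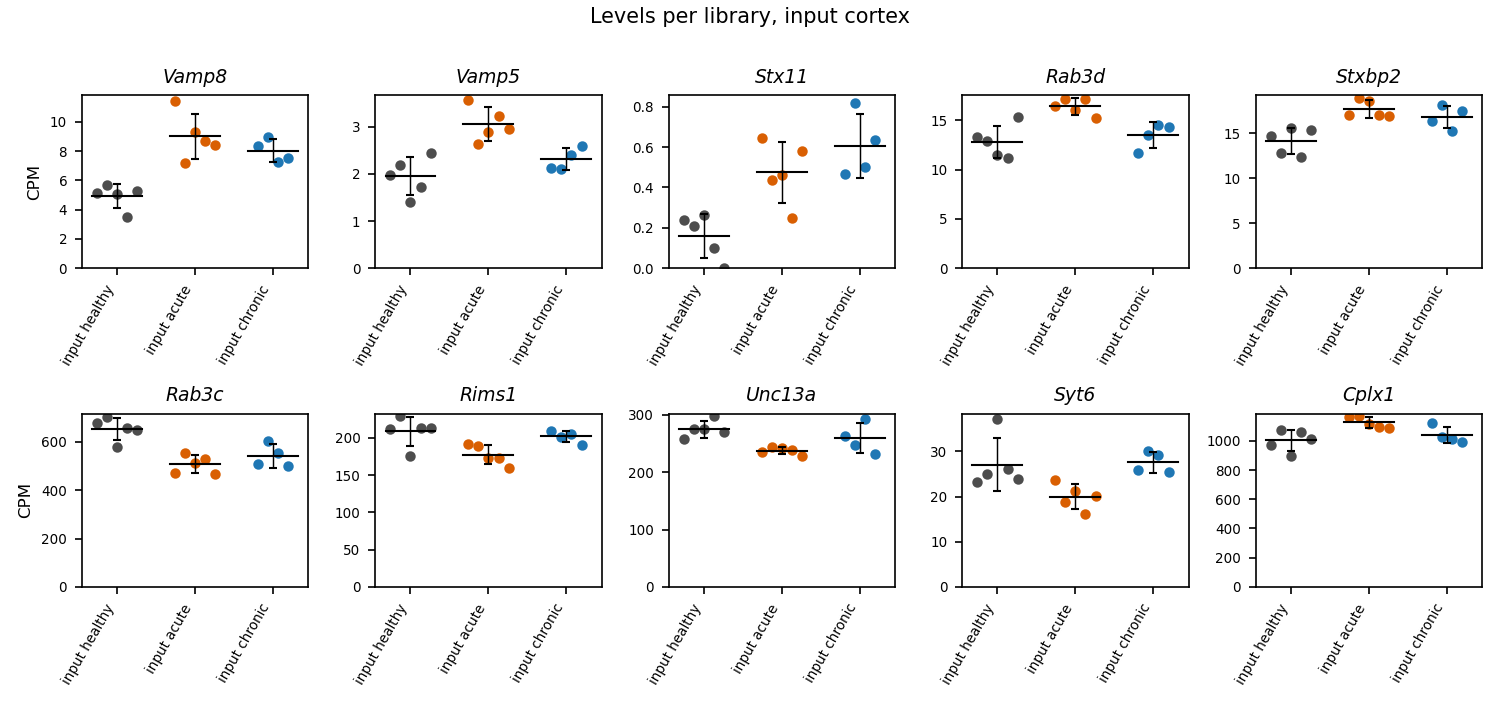
CPM of 10 members in the 14 input libraries (points; bars, mean ± SD) by phase, each panel on its own axis from 0. Acute values of Vamp8, Vamp5, Stxbp2 and Cplx1 all lie above the healthy values, and those of Rab3c and Unc13a all lie below them.

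Among neuronal members of acute input, Rab3c (chr13:110054187-110280206) fell most clearly. It had 677, 704, 579, 656 and 651 CPM in healthy, 470.3, 555, 513, 529 and 469 in acute and 508, 605, 554 and 499.8 in chronic input. Every acute library was below every healthy one, chronic values met the healthy range at 1 library, and the changes were -0.36 ± 0.06 (adjusted p = 0.000232) and -0.27 ± 0.06 (adjusted p = 0.0239). The chronic call was lost without input healthy replicate 1, 2, 4 or 5 or input chronic replicate 1 or 4. Rab3a did not pass in either phase: its acute change was 0.05 ± 0.03 (adjusted p = 0.323) and its chronic change -0.06 ± 0.03 (adjusted p = 0.417).

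The active zone genes were the next set of neuronal members to fall in acute input, with 3 of 9 lower and none higher. Rims1 had 213, 229, 176, 213 and 213 CPM in healthy and 191, 189, 172, 174 and 160.2 in acute input, a change of -0.23 ± 0.06 (adjusted p = 0.00622), with 1 healthy library among the acute values. Unc13a (chr8:71624417-71671757) had 257, 275, 275, 298 and 271 CPM in healthy and 235, 243, 242, 239 and 227 in acute input, groups that did not overlap (-0.21 ± 0.05, adjusted p = 0.00669). The gene span of Unc13a overlaps that of Colgalt1 on the other strand, which had 14517 counts over all libraries beside 131279 for Unc13a. Pclo had 93.3, 94.7, 82.8, 73.3 and 77.2 CPM in healthy and 78.0, 72.4, 70.3, 73.2 and 76.2 in acute input, overlapping ranges with a change of -0.19 ± 0.06 (adjusted p = 0.0389), lost without input healthy replicate 1 or 2 or input acute replicate 2, 3 or 4. In the chronic phase Rims1 (-0.04 ± 0.06), Unc13a (-0.08 ± 0.06) and Pclo (-0.05 ± 0.07) did not pass. Bsn and Rims3 had positive values in both phases (0.09 ± 0.08 and 0.24 ± 0.09; 0.18 ± 0.07 and 0.21 ± 0.08) and did not pass.

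The complexins moved apart by small amounts in acute input. Cplx1 had 1165, 1172, 1117, 1098 and 1091 CPM in acute input, all above the 898 to 1076 CPM of healthy libraries (0.17 ± 0.04, adjusted p = 0.00964). Cplx2 had 1632, 1504, 1464, 1635 and 1569.6 CPM there against 1629 to 1864 in healthy libraries, with a change of -0.14 ± 0.04 (adjusted p = 0.0225) that was lost without input healthy replicate 4 or input acute replicate 2 or 3. The log2 ratio of Cplx1 to Cplx2 was -0.78 ± 0.09 (SD) in healthy, -0.47 ± 0.09 in acute and -0.72 ± 0.06 in chronic input, given without a test. Syt6 (chr3:103575231-103645569), a synaptotagmin of deep cortical layers, fell to 23.6, 18.8, 21.2, 16.1 and 20.1 CPM in acute input from 23.2, 25.0, 37.2, 26.1 and 23.8 in healthy (-0.44 ± 0.13, adjusted p = 0.0212), with 37.2 CPM in healthy replicate 3 and 23.2 to 26.1 in the others. That call was lost without input acute replicate 2 or 4. Syt4, a synaptotagmin that does not trigger fast release, had a change of -0.22 ± 0.07 (adjusted p = 0.0347) that held without input healthy replicate 2 or input acute replicate 5 and was lost in the other 8 fits with a library left out.

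The core genes of fusion named here did not pass in acute or chronic input. Snap25 had 4461, 4395, 4209, 4325 and 4120.3 CPM in acute and 5180.4, 4538, 4579.8 and 4479 in chronic input, beside the healthy 4180.5 to 4879 CPM (-0.10 ± 0.04 and 0.03 ± 0.04, adjusted p = 0.117 and 0.811). Stx1a (-0.10 ± 0.07 and -0.06 ± 0.07), Vamp1 (0.04 ± 0.07 and 0.03 ± 0.07) and Vamp2 (0.03 ± 0.03 and -0.02 ± 0.04) were also near 0 in both phases. Syt1 had -0.14 ± 0.07 and 0.07 ± 0.08, and Syp had -0.02 ± 0.13 and 0.02 ± 0.13. With these standard errors, small changes in these genes may have escaped the test, and a missed threshold does not show equality. Syn1 had -0.10 ± 0.04 and -0.16 ± 0.05 without passing.

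In chronic input 4 of 65 members passed (Vamp8 and Stx11 higher, Rab3c and Syn2 lower), beside 2.74% of all genes (2.33% higher, 0.409% lower). An unadjusted p under 0.05 was found for 16, again without a share of all genes. Syn2 fell from 823, 793, 754, 774 and 808 CPM in healthy to 677, 727, 746 and 691 CPM in chronic input (-0.15 ± 0.04, adjusted p = 0.0437), without overlap, a call that held without input healthy replicate 3 or input chronic replicate 3 and was lost in the other 7 fits. Groups did not overlap for 3 higher members (Stx11, Stxbp3 and Vamp8, against 3.84% of all genes) and 4 lower ones (Rab3b, Syn1, Syn2 and Syt17, against 2.21%). Vamp8 passed in each of the 9 fits. The count was 1 in the fits without input healthy replicate 1, 2, 4 or 5 or input chronic replicate 1 or 4. Both phases were set against the same healthy libraries.

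Between chronic and acute input, Syt6 was higher (25.9, 30.0, 29.3 and 25.3 CPM in chronic libraries, 0.48 ± 0.13, adjusted p = 0.0397) and Rab3a lower (898, 869, 865 and 855 CPM in chronic beside 909.9, 989.7, 925, 927 and 955 in acute libraries, -0.11 ± 0.03, adjusted p = 0.0498). These 2 of 65 members compare with 7.69% of all genes (2.95% higher, 4.74% lower). An unadjusted p under 0.05 was found for 18 members, again without a share of all genes. Groups did not overlap for 2 higher members (Snap25 and Syt6, against 3.99% of all genes) and 4 lower ones (Rab3a, Rab3d, Stx8 and Vamp5, against 6.58%). With a library left out, the call of Syt6 held in 1 of 9 fits (without input acute replicate 1) and that of Rab3a in 3 (without input acute replicate 1 or 4 or input chronic replicate 1).

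Some input libraries differed across many members at once. Among 42 members with a mean of at least 50 CPM, input healthy replicate 3 had the highest healthy value of 10 and the lowest of 22. Input acute replicate 5 likewise had the highest of 15 and the lowest of 16, and input chronic replicate 4 the highest of 10 and the lowest of 21. The 8 members highest in all 3 of these libraries were Sv2a, Sv2b, Syp, Syt1, Syt3, Syt4, Syt5 and Syt11. Among the 12 lowest in all 3 were Cplx1, Rab3c, Rims1, Rims2, Rims3, Rims4, Snap25, Stx12, Stx16, Stxbp5 and Stxbp6. These were picked out after seeing the values and carry no test.

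In the pulldown, no member passed in any comparison between phases. The comparisons asked which release genes changed on the tagged ribosomes in EAE. By edgeR's quasi-likelihood test the count was 0 of 63 in acute against healthy, chronic against healthy and chronic against acute IP, beside 0.0647%, 0.187% and 0.0% of all 13914 genes. By direction these shares were 0.0575% higher and 0.00719% lower in acute, 0.18% and 0.00719% in chronic against healthy, and 0.0% in chronic against acute IP. At an unadjusted p under 0.05 there were 4, 9 and 7 members, without a share of all genes at that threshold. DESeq2's Wald test called 0 of 64, 4 of 63 and 2 of 42, beside 1.24%, 2.65% and 4.15% of all genes to which it gave an adjusted p. The median log2 change of the members was 0.08, 0.03 and -0.12, beside -0.04, -0.03 and 0.02 over all genes. In acute against healthy IP the groups overlapped for every member tested (1.33% of all genes higher, 0.963% lower). In chronic against healthy they did not overlap for Sv2a and Syp, which were higher (2.87% of all genes), and for Vamp2, which was lower (1.95%), and in chronic against acute for Stx4a and Vamp2, both lower (1.77%), with none higher (1.65%).

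Vamp2 (chr11:69088490-69092384) had the smallest p in both chronic comparisons. It had 1517, 1799, 1407, 1412 and 1513 CPM in healthy IP, 1519.9, 1699.6, 1782, 1455 and 1770.3 in acute and 1241, 1129, 1042 and 790.4 in chronic IP. Every chronic library was below every healthy and acute one, but the changes did not pass (-0.55 ± 0.14 against healthy, adjusted p = 0.113; -0.65 ± 0.14 against acute, adjusted p = 0.148). In input the same gene had -0.02 ± 0.04 in the chronic phase, and the interaction, the chronic change in IP minus that in input, was -0.52 ± 0.14 (adjusted p = 0.0527).

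Unc13a had 216, 177, 196, 239.7 and 209.7 CPM in healthy IP, 229, 352, 353, 248 and 339 in acute and 341, 239.6, 282 and 436 in chronic IP. Most EAE libraries were above the healthy ones, with overlap, and the changes were 0.55 ± 0.18 (adjusted p = 0.446) and 0.64 ± 0.19 (adjusted p = 0.193). As Unc13a was lower in acute input, its interaction was 0.76 ± 0.19 in the acute phase (adjusted p = 0.0706) and 0.73 ± 0.20 in the chronic phase (adjusted p = 0.0593), neither past the threshold. DESeq2's Wald test called both of these interactions and the chronic one of Vamp2, which made 1 and 2 of 65 members beside 3.43% and 6.85% of all genes in the acute and chronic interaction. Without the 4 IP libraries of low detection, 7 of 66 members passed the acute and 4 the chronic interaction in edgeR's test, beside 8.07% and 10.8% of all genes in that fit, so these shares were not far from those of all genes. In the full set 0 of 66 passed either, beside 0.00603% (all higher) and 1.03% (0.633% higher, 0.392% lower) of all genes. An unadjusted p under 0.05 was found for 4 and 8 members, without a share of all genes.

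**Figure D5:**
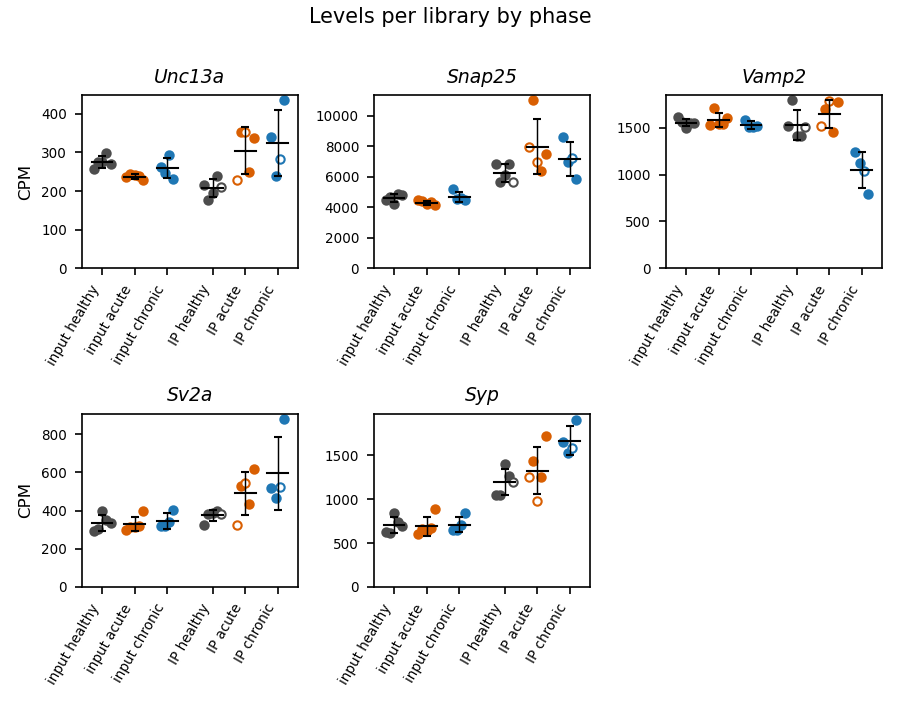
CPM of 5 members in all 28 libraries (points; bars, mean ± SD; open points, the 4 IP libraries of low detection), each panel on its own axis from 0. Chronic IP values of Vamp2 (790.4 to 1241) lie under all other IP values of the gene, and those of Syp (1522 to 1907) lie over all healthy IP values.

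Snap25 had 7924, 11012, 6937, 6391 and 7514 CPM in acute IP and 8638, 6951, 7216 and 5859 in chronic IP, beside 5648 to 6861 in healthy IP. Acute replicate 2 stood highest, and the acute change of 0.35 ± 0.13 did not pass (adjusted p = 0.549), nor did its interaction of 0.45 ± 0.15 (adjusted p = 0.132). Sv2a had 327, 383, 385, 395 and 382 CPM in healthy and 516, 464, 522 and 878 in chronic IP. The groups did not overlap, 1 chronic library stood far above the rest, and the change was 0.66 ± 0.19 (adjusted p = 0.168). Syp had 1653, 1522, 1587 and 1907 CPM in chronic IP, all above healthy IP (0.48 ± 0.14, adjusted p = 0.193). Vamp2, Sv2a, Syp and Unc13a were the 4 that DESeq2 called in chronic against healthy IP, and Vamp2 was among the 2 that it called in chronic against acute. The summed level of 6 oligodendrocyte markers in IP was 1034 to 1327, 847 to 1179 and 1166 to 2901 CPM in the healthy, acute and chronic phase, and that of 5 general neuronal markers 3659 to 4414, 4430.4 to 5925 and 4933 to 6533, whose part in these values was not tested.

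Other core members did not pass in either EAE phase against healthy IP. The log2 changes in acute and chronic IP were 0.35 ± 0.17 and 0.06 ± 0.18 for Syn1 and -0.00 ± 0.14 and -0.11 ± 0.15 for Syt1. For Cplx1 they were 0.18 ± 0.16 and -0.23 ± 0.17, for Cplx2 0.08 ± 0.15 and -0.05 ± 0.16, and for Rab3a 0.20 ± 0.13 and 0.01 ± 0.14. The long scaffold genes were the least precise, with 0.49 ± 0.35 and 0.19 ± 0.37 for Bsn and -0.24 ± 0.58 and 0.52 ± 0.62 for Pclo. The low members Vamp8 and Vamp5 had 0 CPM in 2 and 3 of 5 acute IP libraries and Stx11 had reads in 1 of 14 IP libraries, so their rise in input was not followed in IP. IP acute replicate 2, with 21229550 counts, had 12 reads of Vamp8 and none of Vamp5 or Stx11. Of the 9 leukocyte markers, 7 were at 0 in healthy IP and 8 in chronic IP.

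A list of 40 other genes of release and vesicle recycling gives the setting. In acute input, 1 was higher, the ubiquitous SNAP-25 relative Snap23 (0.36 ± 0.11), and 7 were lower: Lin7a (-0.35 ± 0.04), Cask (-0.31 ± 0.05), Napb (-0.17 ± 0.04), Cacna1b (-0.23 ± 0.06), Erc1 (-0.18 ± 0.05), Erc2 (-0.17 ± 0.04) and Ppfia2 (-0.23 ± 0.06). Lin7a and Cask are presynaptic adaptors, Erc1, Erc2 and Ppfia2 (a liprin) are active zone scaffolds, and Cacna1b is the N-type calcium channel. In chronic input Snap23 was higher (0.43 ± 0.11) and Doc2a, a calcium sensor of spontaneous release, was lower (-0.33 ± 0.07). The median log2 change of the 40 was -0.06 and -0.05. Between chronic and acute input, Lin7a, Cacna1b, Cask and Erc2 were higher, while Dnm1, Snap47 and Cplx3 were lower.

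Against input, 8 of the 40 were higher and 9 lower in healthy IP, 10 and 5 in acute and 10 and 8 in chronic IP, with medians of -0.02, 0.19 and 0.03. Among the higher ones in all 3 phases were Nsf, the ATPase that takes SNARE bundles apart (1.06 ± 0.10, 1.44 ± 0.10 and 1.32 ± 0.11), and Dnm1, the dynamin that pinches off recycling vesicles (1.15 ± 0.11, 1.71 ± 0.11 and 1.47 ± 0.12). Napa, the adaptor of Nsf, was also higher (0.67 ± 0.09, 0.71 ± 0.09 and 0.58 ± 0.10), as was the liprin Ppfia3 (1.20 ± 0.15, 1.81 ± 0.16 and 1.45 ± 0.17). Lin7a, Rab27b and the endocytic scaffold Itsn1 were lower in all 3. None of the 40 passed in IP between phases or in an interaction.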

How the data were processed

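The authors deposited counts per gene made with featureCounts 1.5.1, per the file headers: read pairs over exons grouped by gene, without strand, on the Ensembl release 79 annotation of GRCm38. The submitters' processing notes name STAR 2.4 and DESeq2. The header names 36 alignment files, of which the 28 libraries held were used, the others being not analysed here. Symbols were matched for 42462 of 43629 genes (97.3%).

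Counts were tested in R 4.3.3 with edgeR 4.0.16 (filterByExpr, minimum count 10 and minimum total 15; TMM scaling; robust quasi-likelihood F test; Benjamini-Hochberg adjustment over all genes tested). The 6 comparisons between phases used 1 fit per fraction. IP against input and the 2 interactions used a fit of both fractions, with a common biological coefficient of variation of 0.71. That value lies between those of the fractions alone, so p-values from this fit may be too small. Log2 changes are given ± SE, and CPM and RPKM as mean ± SD on the scaled library size. The 52 pairs of libraries within a group were checked and all differed by more than sampling noise. The scripts were tested on simulated data.

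The members, the lists and the rule for naming genes were chosen with earlier results of these data known, so counts over them are descriptions. Values of 2 members are not reported here; counts over the members hold them. Named were 15 core genes, up to 4 called members per comparison with the smallest adjusted p (average log2 CPM 1 or more) and, where none was called, up to 2 with the smallest p. Alternatives were DESeq2's size factors, no filter, the DESeq2 1.42.0 Wald test, a replicate block, all 28 libraries in 1 fit, each replicate left out, and the 4 IP libraries of low detection left out. Same-numbered IP and input libraries are not stated to be from 1 animal. Python 3.11.15 and matplotlib 3.10.9 drew the figures. Promoters were taken from RefSeq (GRCm38.p6).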

Additional observations from a re-analysis of the deposited data

Results flagged for a closer look

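In 144 groups of 4 or 5 libraries checked, 23 named members and the members' share of counts, 15 held 1 library far from the rest by Dixon's criterion; chance gives about 1 in 20 groups. In input acute replicate 5, an outlying high value was found for Syp (884 CPM, the others 605 to 674), Sv2a (396, the others 300.4 to 322), Syt1 (1228, the others 1011 to 1071) and Syt5 (176, the others 128 to 139), all vesicle membrane proteins. In input chronic replicate 1 it was found for Snap25 (5180.4 CPM, the others 4479 to 4580), Vamp2 (1588, the others 1505 to 1519) and the share of all counts in members (2.40%, the others 2.29% to 2.30%). Syt6 had 37.2 CPM in input healthy replicate 3 (the others 23.2 to 26.1).

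In IP, Sv2a stood apart in healthy replicate 1 (327 CPM, the others 382 to 395) and in chronic replicate 4 (878 CPM, the others 464 to 522). Rims1 was low in chronic replicate 2 (51.4 CPM, the others 126 to 133). Rab3a was high in healthy replicate 5 (1807 CPM, the others 1509.7 to 1557), 1 of the 4 IP libraries of low detection. Vamp2 was high in healthy replicate 2 (1799 CPM, the others 1407 to 1517), Rims3 in healthy replicate 4 (159 CPM, the others 93.1 to 110.1) and Rab3c in acute replicate 2 (506 CPM, the others 396 to 423).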

How the results depend on the processing

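Of the 91 calls of members, 91 passed with DESeq2's size factors, 91 with the DESeq2 Wald test, 87 without the filter and 84 with the replicate block; none changed sign. With all 28 libraries in 1 fit, 0 of 21 input calls passed, and the counts were 0, 0 and 0 for acute, chronic and chronic against acute input. For the same comparisons in IP they were 3, 10 and 5 of 66 members. Of all 16580 genes that fit called 1611, 2550 and 1762 in IP. The DESeq2 Wald test called 4 members in chronic against acute input, beside 1676 of all 17541 genes. It called 4 and 2 in chronic IP against healthy and against acute, and 1 and 2 in the acute and chronic interaction. Without the 4 IP libraries of low detection the interactions held 7 and 4 members. Leaving out 1 library gave 9 to 16, 1 to 5 and 0 to 4 members in acute, chronic and chronic against acute input, 17 to 22, 17 to 22 and 21 to 28 for IP against input in healthy, acute and chronic mice, and 0 to 2 in each interaction. Over all genes these fits called 2629 to 3320, 250 to 447 and 784 to 1188 in input. For IP against input they called 3016 to 3711, 2395 to 3138 and 4177 to 5067.

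Same-numbered IP and input libraries correlated best with each other in 10 of 14 cases, which is a hint from the data and not from the design. With the replicate block, 2 members passed in chronic against healthy input, and the calls lost were those of Stx11 (3 comparisons), Syn2, Rab3a, Unc13c and Stx18.

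Counts over all genes moved by more than 1.5 times as follows. In acute, chronic and chronic against acute input they were 20, 0 and 0 with all 28 libraries in 1 fit. Chronic input went from 449 to 689 with DESeq2 and to 250 without input chronic replicate 4, and chronic against acute input to 784 without input chronic replicate 2. Acute IP went from 9 to 190 with DESeq2, 2 with the block, 1611 with all libraries, 1 without the 4 libraries of low detection and 1 to 50 with a library left out. Chronic IP went from 26 to 401, 15, 2550, 40 and 9 to 43 in the same order, and to 54 with size factors, and chronic against acute IP from 0 to 213 with DESeq2 and 1762 with all libraries. The acute interaction went from 1 to 616 with DESeq2, 1364 without the 4 libraries, 0 with the block and 0 to 287 with a number left out. The chronic interaction went from 170 to 1196, 1823, 28 and 43 to 148 likewise, and to 47 without the filter. Healthy IP against input went to 5769 without the 4 libraries. The causes of these shifts were not tested. Stx11, Vamp5, Syt10 and Syt15 had no read in many IP libraries, IP acute replicate 2 with 21229550 counts among them, and the part of depth in this was not tested.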
